A study of Mus musculus with 6 samples.

Results

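The 9 genes described here are transcription factors of gut and other epithelia, namely the ETS factors *Elf3* and *Ehf*, the grainyhead factors *Grhl1*, *Grhl2* and *Grhl3*, the zinc finger factor *Ovol2*, the caudal homeobox factors *Cdx1* and *Cdx2*, and the nuclear receptor *Hnf4a*. All 9 had a row among the 24393 features of the count tables, found by gene symbol, and 7 of them had enough counts to be tested. The list was drawn up with the HOXA13 contrast in view, since *Elf3*, *Grhl3* and *Cdx1* were known to be higher and the others were added as their relatives. The values of the 9 genes in that contrast are therefore a description, given with standard errors and no p-values, and their count past the threshold used for all genes stands beside that of all genes as a description too. RNA was sequenced from non-differentiated KH2 cells, a mouse embryonic stem cell (mESC) line labelled as strain C57/BL/6, in 3 control cultures (genotype CONTROL) and 3 *HOXA13*-overexpressing cultures (genotype HOXA13). Human *HOXA13* had been targeted into the latter under doxycycline control, while the labels of all 6 cultures sequenced here state no treatment. All cultures were kept with LIF on irradiated 3T3-Swiss albino fibroblasts, so that feeder RNA can be among the counts. The 3 replicates of a group are described as biological, and which clone each came from is not given in the sources used here.

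These factors switch on the programs that make a sheet of epithelial cells. The grainyhead proteins bind and open regulatory DNA of genes for cell junctions, surface proteases and their inhibitors, and *Ovol2* holds down genes of the mesenchymal state. *Elf3* and its close relative *Ehf* belong to the epithelium-specific branch of the ETS family, and *Elf3* is known for its part in maturation of the intestinal lining. *Cdx1* and *Cdx2* give the intestine its posterior identity and pattern the tail end of the embryo, where *Cdx1* responds to Wnt and retinoic acid signals and *Cdx2* is also a founder of the trophectoderm. *Hnf4a* is required in visceral endoderm, liver and gut epithelium.

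The 250 bases before the annotated start of *Elf3* and *Grhl3*, the factors with the largest increases and with a promoter at hand, are shown beside those of *Cdx2* and *Ovol2*, a factor whose groups overlapped and a factor with a smaller increase. They are RefSeq sequences of build GRCm38.p6, at chr1:135258473-135258722 (minus strand) for *Elf3*, chr4:135573633-135573882 (minus) for *Grhl3*, chr5:147307250-147307499 (minus) for *Cdx2* and chr2:144331363-144331612 (minus) for *Ovol2*. Capitals mark the motifs found.
Elf3: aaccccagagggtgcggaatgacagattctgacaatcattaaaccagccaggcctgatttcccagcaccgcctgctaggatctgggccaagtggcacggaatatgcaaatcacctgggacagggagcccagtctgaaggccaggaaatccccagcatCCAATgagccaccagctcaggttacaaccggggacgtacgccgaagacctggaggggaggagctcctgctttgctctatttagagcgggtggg
Grhl3: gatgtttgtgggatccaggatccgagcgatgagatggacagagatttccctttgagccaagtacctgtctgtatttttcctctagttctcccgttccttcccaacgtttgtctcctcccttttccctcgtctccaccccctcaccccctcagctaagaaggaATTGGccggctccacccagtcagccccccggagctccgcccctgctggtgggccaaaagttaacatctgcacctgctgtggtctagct
Cdx2: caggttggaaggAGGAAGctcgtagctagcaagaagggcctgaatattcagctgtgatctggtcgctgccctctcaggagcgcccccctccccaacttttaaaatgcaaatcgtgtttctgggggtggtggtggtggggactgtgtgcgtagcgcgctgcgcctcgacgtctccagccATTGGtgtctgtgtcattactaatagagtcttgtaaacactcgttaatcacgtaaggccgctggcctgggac
Ovol2: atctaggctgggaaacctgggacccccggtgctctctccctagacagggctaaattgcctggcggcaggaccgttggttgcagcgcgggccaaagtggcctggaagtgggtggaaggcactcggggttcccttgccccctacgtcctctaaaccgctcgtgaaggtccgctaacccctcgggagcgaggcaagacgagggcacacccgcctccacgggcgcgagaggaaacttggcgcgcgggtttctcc
The 6 motifs below were searched on both strands, namely AACCGGTT of grainyhead factors, CAATAAA and TCGTAAA, which HOX13 and caudal factors bind, AGGAAG of ETS factors, CTTTGAT of TCF/LEF factors and the TATA box TATAAA. None of the 6 was found in these windows of *Elf3*, *Grhl3* or *Ovol2*. AGGAAG was found in that of *Cdx2*, starting 238 bases before the start site, and in 29.5% of all 32851 promoters of the table. CAATAAA was in 4.2% of them, TCGTAAA in 0.478%, CTTTGAT in 3.21%, TATAAA in 12.4% and AACCGGTT in 0.116%. A further motif, CCAAT, which can overlap with CAATAAA in the letters CAAT, was added after the sequences had been seen. It starts 93 bases before the start of *Elf3*, and its reverse complement ATTGG starts 88 bases before that of *Grhl3* and 72 bases before that of *Cdx2*, while 33.8% of all promoters hold it on either strand. Of the other members, promoters of *Grhl1* and *Hnf4a* were searched too, which are not printed. AGGAAG on the opposite strand started 201 bases before a start of *Grhl1* and 13 bases before a start of *Hnf4a*, and CCAAT on either strand started at 123 and 59 bases for *Grhl1* and at 192 and 216 bases for *Hnf4a*. The promoters of *Cdx1*, *Grhl2* and *Ehf* were left out here, so that nothing is said of their motifs.

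Total counts were between 14608681 and 21766589 in control and between 13494135 and 20374341 in *HOXA13*-overexpressing libraries, and levels are given as CPM, counts scaled to the library size with TMM factors. A level of 3 counts, taken as the floor, was between 0.134 and 0.227 CPM. The human feature ENSG00000106031, which the tables do not pair with a symbol, counted 6, 0 and 0 reads in the control libraries against 4298, 4177 and 2881 where *HOXA13* was overexpressed. Endogenous *Hoxa13* reached 0.713, 1.56 and 1.06 CPM in the control libraries and 1.27, 1.65 and 1.74 CPM in the others (adjusted p = 0.295). All 10 embryonic stem cell markers checked were well above the floor in each library, of which 4 (*Nanog*, *Sox2*, *Esrrb* and *Klf4*) were higher and 2 (*Tdgf1* and *Fgf4*) lower, and 8 of the 10 squamous keratinocyte markers were too low to be tested. In bulk RNA, fewer cells of a type and less RNA per cell cannot be told apart, which holds for every level below. Of the 12 fibroblast markers, 0 were higher and 1 (*Fbln1*) was lower in edgeR at an adjusted p under 0.05 (1 higher and 1 lower at an unadjusted p under 0.05), and their summed level was 3780 to 5820 CPM in control and 5440 to 6850 CPM in *HOXA13*-overexpressing libraries.

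Of the 7 factors tested, 5 (*Elf3*, *Grhl3*, *Cdx1*, *Ovol2* and *Grhl1*) were above every control library in every *HOXA13*-overexpressing library. The same 5 lay past the threshold set for all genes, an adjusted p of 0.05 in edgeR's quasi-likelihood test, which is no test of factors chosen on this contrast. Among all 13846 genes tested, 27.7% passed that threshold, 14.4% higher and 13.3% lower. Every *HOXA13*-overexpressing library was above every control library in 23.5% of these genes, below in 22.2% and either in 45.7%, and 1.01% had a log2 fold change of at least 2, as *Elf3* and *Grhl3* did. Nothing is read from the count of 5. *Cdx2* and *Grhl2* overlapped between the groups, and *Ehf* and *Hnf4a* were close to the floor in all 6 libraries.

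*Elf3*, on chromosome 1 of mm9 from 137150151 to 137155049 (minus strand), was at 27.9, 23.1 and 28.4 CPM in the 3 control libraries and at 174.3, 170.7 and 160.1 CPM in the 3 *HOXA13*-overexpressing libraries. The lowest of the latter lies far above the highest control, and the libraries within each group were close together. This is a log2 fold change of 2.67 (standard error, SE, 0.09), or 6.35-fold, and 0.556% of the genes tested had a larger increase. Genes of chromosome 1 were higher as a whole, with a median log2 fold change of 0.38 over 778 genes, against a median of 0.00 over all genes tested. With each chromosome centred in each library, *Elf3* had a log2 fold change of 2.28. The annotation places *Gm16606* over *Elf3* on the opposite strand, a gene with no row among the counts used here, and the part of its reads in the value was not tested. *Ehf* (chromosome 2, 103103590 to 103143435, minus strand), its relative among the epithelial ETS factors, counted 7, 1 and 4 reads in the control libraries against 1, 4 and 2. These counts are at or near the floor in both groups, so that no difference was detectable at this depth.

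*Grhl3*, on chromosome 4 from 135097803 to 135129545 (minus strand), was at 13.8, 19.7 and 16.4 CPM in control and at 86.7, 94.9 and 83.8 CPM in *HOXA13*-overexpressing libraries. The groups are widely apart, at 5.34-fold (log2 fold change 2.42, SE 0.13). *Grhl1*, a relative with a known part in desmosomes of skin and hair (chromosome 12, 25257152 to 25302256, plus strand), was at 11.6, 14.0 and 14.8 CPM in control and at 21.7, 22.02 and 22.8 CPM in *HOXA13*-overexpressing libraries. Its increase was smaller (log2 fold change 0.72, SE 0.11), and the groups did not overlap. *Grhl2*, a regulator of E-cadherin and neural tube closure (chromosome 15, 37162791 to 37293324, plus strand), was at 38.4, 48.3 and 52.5 CPM in control and at 58.3, 54.2 and 47.8 CPM in *HOXA13*-overexpressing libraries. Here *HOXA13* replicate 3 lies below control replicates 2 and 3, and the log2 fold change was 0.21 (SE 0.13). *Ovol2* (chromosome 2, 144130911 to 144157882, minus strand) was at 3.26, 4.76 and 4.30 CPM in control and at 8.99, 9.80 and 10.1 CPM in *HOXA13*-overexpressing libraries. Every *HOXA13*-overexpressing library was above every control library (log2 fold change 1.24, SE 0.17).

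*Cdx1*, on chromosome 18 from 61178516 to 61195853 (minus strand), was at 9.54, 16.2 and 6.27 CPM in control and at 28.5, 28.5 and 33.0 CPM in *HOXA13*-overexpressing libraries. The control cultures differed among themselves by more than those of *Elf3* or *Grhl3*, with a coefficient of variation of 47.3% against 11.0% and 17.7%, but the groups did not overlap. The log2 fold change was 1.51 (SE 0.28), and it was 1.90 without control replicate 2, the highest control. *Cdx2* (chromosome 5, 148112381 to 148118846, minus strand) was at 5.80, 0.815 and 3.34 CPM in control and at 4.32, 2.48 and 4.01 CPM in *HOXA13*-overexpressing libraries. The range of the control libraries holds that of the others, and the log2 fold change of 0.08 (SE 0.54) changed sign when some libraries were left out. Control replicate 2 thus held the most *Cdx1* and the least *Cdx2* of the 3 control cultures. The primitive streak factor *T*, named here after its values had been seen, was at 180.9, 10.5 and 85.2 CPM in the same 3 cultures, in the order of *Cdx2*, and at 1.37, 2.48 and 2.27 CPM in *HOXA13*-overexpressing libraries. The part of such differences between control cultures in the *Cdx* values was not tested. *Hnf4a* (chromosome 2, 163332544 to 163398646, plus strand) counted 0, 0 and 1 reads in the control libraries and 1 in each of the others, which is below the floor of 3 counts in all 6. No level or difference can be given for it.

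**Figure D1:**
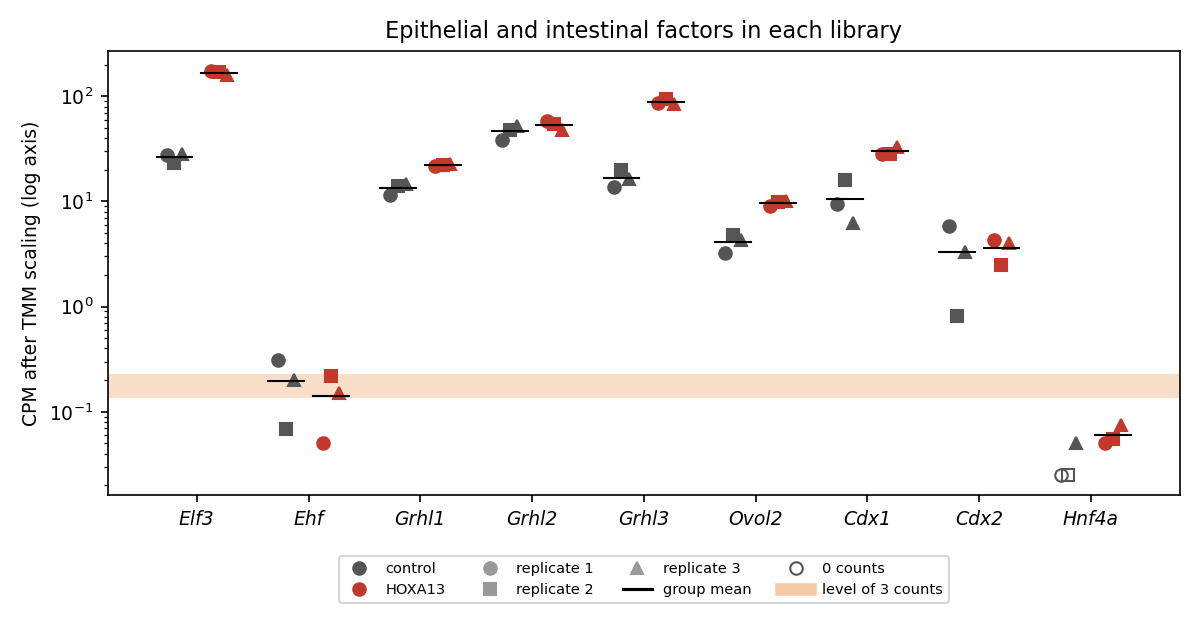
Level of each of the 9 factors in each library, in CPM on a log axis, with control libraries in grey, HOXA13-overexpressing libraries in red, a symbol for each replicate a line for each group mean and open symbols for 0 counts. The red points of *Elf3* and *Grhl3* sit far above the grey ones, those of *Cdx2* and *Grhl2* overlap with them, and *Ehf* and *Hnf4a* lie near or below the band that marks 3 counts.

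Levels of different genes can be compared only per length, for which CPM was divided by the length in kb of all annotated exons of the gene. On this scale the order in control cultures was *Elf3* (13.2 ± 1.46 CPM per kb, SD, n = 3), *Grhl2* (8.43 ± 1.32), *Cdx1* (6.09 ± 2.88), *Grhl3* (5.97 ± 1.06), *Grhl1* (3.84 ± 0.47), *Ovol2* (1.94 ± 0.36) and *Cdx2* (1.47 ± 1.102). Of these neighbours, *Grhl2* and *Cdx1*, *Cdx1* and *Grhl3*, and *Ovol2* and *Cdx2* lay within their SDs of each other. In *HOXA13*-overexpressing cultures the order was *Elf3* (84.2 ± 3.68 CPM per kb), *Grhl3* (31.7 ± 2.07), *Cdx1* (17.1 ± 1.47), *Grhl2* (9.70 ± 0.97), *Grhl1* (6.33 ± 0.15), *Ovol2* (4.56 ± 0.28) and *Cdx2* (1.59 ± 0.44), with no neighbours within their SDs. *Elf3* thus led in both groups, and *Grhl3* moved from the fourth to the second place.

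Within the grainyhead family, *Grhl2* was the most abundant transcript per length in each control library, with 45.7%, 44.2% and 48.6% of the summed CPM per kb of the 3 genes. *Grhl3* held 32.5%, 35.6% and 30.0% of that sum in control and 64.9%, 67.8% and 66.4% in *HOXA13*-overexpressing libraries. The leading grainyhead transcript was therefore *Grhl2* in the 3 control libraries and *Grhl3* in the 3 *HOXA13*-overexpressing libraries, while the level of *Grhl2* itself overlapped between the groups. Of the caudal pair, *Cdx1* was the larger in all 6 libraries. It made up 68.0%, 96.2% and 70.8% of their sum in control and 89.5%, 93.7% and 91.4% in *HOXA13*-overexpressing libraries, ranges that overlap through control replicate 2. *Elf3* made up at least 99.6% of the sum of *Elf3* and *Ehf* in each library.

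**Figure D2:**
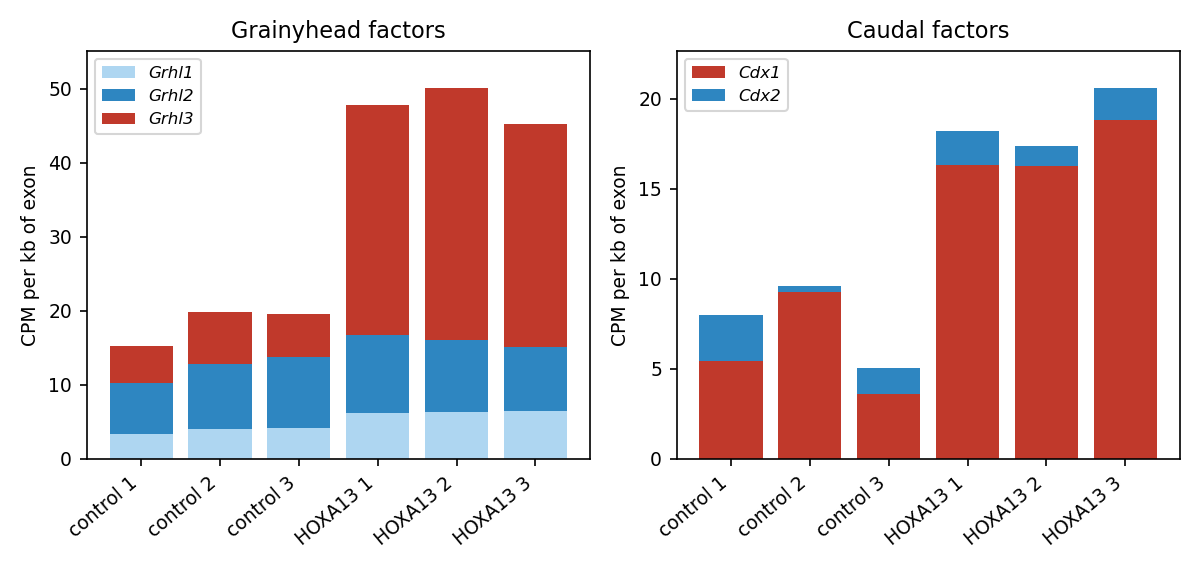
CPM per kb of exon of the grainyhead factors (left) and the caudal factors (right), stacked for each of the 6 libraries. *Grhl3*, in red on the left, grows from about 30.0% to 35.6% of the bar in control to 64.9% to 67.8% in HOXA13-overexpressing libraries, and *Cdx1*, in red on the right, is the larger part of every bar.

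The increases of *Elf3*, *Grhl3*, *Cdx1*, *Ovol2* and *Grhl1* kept their direction in each of the 15 other fits, which used other scalings, filters and tests or left out 1 library. The log2 fold change ranged from 2.28 to 2.72 for *Elf3*, from 2.30 to 2.54 for *Grhl3*, from 1.24 to 1.90 for *Cdx1*, from 1.09 to 1.34 for *Ovol2* and from 0.62 to 0.80 for *Grhl1*. *Grhl2* ranged from 0.09 to 0.31.

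**Figure D3:**
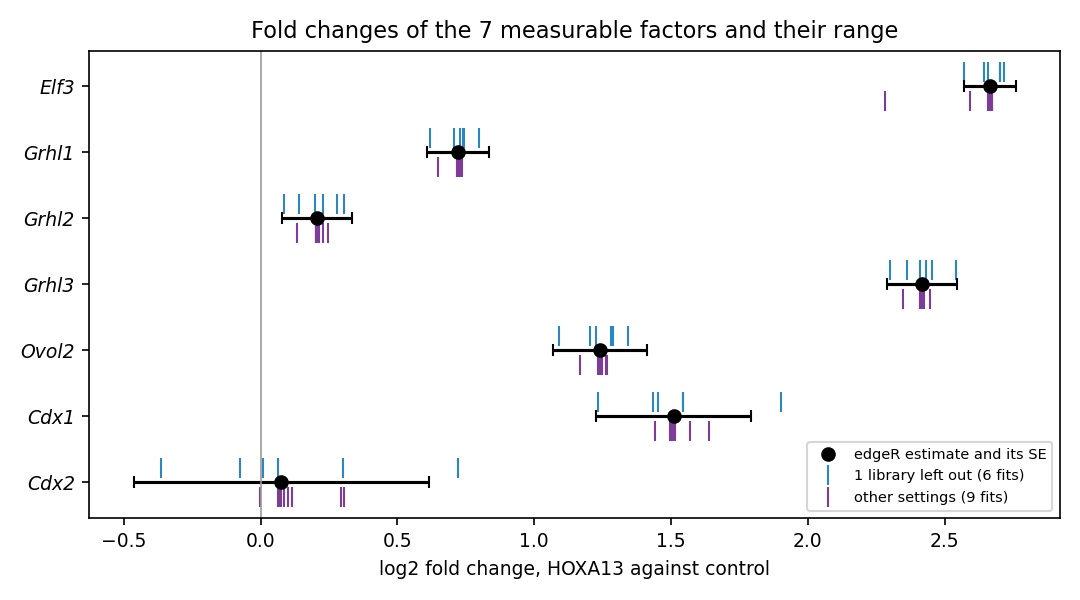
Log2 fold change of the 7 tested factors with its standard error (black), the 6 fits that leave out a library (blue ticks) and 9 fits with other settings (purple ticks). *Elf3* lies at 2.67 and *Grhl3* at 2.42, against 0.72 for *Grhl1* and 0.21 for *Grhl2*, and the ticks of *Cdx2* fall on both sides of 0.

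The gene lists below, apart from neighbours taken by position, were chosen with earlier results of these data known. Their counts and adjusted p-values are therefore a description. Among all genes tested, 27.7% passed, 14.4% higher and 13.3% lower, and the median log2 fold change was 0.00. Of 12 listed relatives of the factors, 7 could be tested and 3 of these (42.9%) rose, while 0 fell (0 also at an unadjusted p under 0.05 and with DESeq2 or limma-voom). Their median log2 fold change was 0.04. A fall of 1 relative was called with no filter on low counts (beside 4 that rose), without *HOXA13* replicate 2 (beside 2) and without control replicate 2 (beside 3), and 1 rise alone without *HOXA13* replicate 1. *Tfcp2l1*, a CP2 factor of the grainyhead superfamily known as a naive pluripotency factor, rose from 191.9, 598.2 and 241.1 CPM in control to 1670, 1565 and 1636 CPM in *HOXA13*-overexpressing libraries (log2 fold change 2.24, SE 0.38, adjusted p = 0.00401). It lies on chromosome 1, like *Elf3*, and its log2 fold change was 2.90 without control replicate 2, the highest control, and 1.91 with chromosomes centred. *Ovol1*, a relative of *Ovol2* in epidermal differentiation, rose (log2 fold change 1.00, SE 0.21, adjusted p = 0.0095), a call lost without *HOXA13* replicate 1 (adjusted p = 0.0539). *Elf1*, an ETS factor best known from blood cells, had a log2 fold change of 0.62 (adjusted p = 0.0408), which was lost in 5 of 15 other fits. Its chromosome, 14, was shifted by 0.26 at the median on the log2 scale, and *Elf1* had 0.36 with chromosomes centred. The CP2 factors *Tfcp2* (log2 fold change 0.01) and *Ubp1* (-0.10) and the ETS factors *Elf2* (0.04) and *Elf4* (-0.19) did not pass. *Hnf4g* had no count in any library, *Spdef* had 0 to 3, and *Elf5* counted 1, 0 and 2 reads in the control libraries against 5, 8 and 8. *Cdx4*, the remaining caudal gene, counted 14, 5 and 13 reads in the control libraries against 2, 3 and 1, too few for the test in the main fit. Every *HOXA13*-overexpressing library was below every control library in CPM, the opposite direction to *Cdx1*.

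Other transcription factors of the gut epithelium were listed next, again as a description. Of 23 listed genes, 15 could be tested, of which 7 rose and 1 fell, with a median log2 fold change of 0.56. That is 53.3% called, against 27.7% of all genes tested. *Gata6*, a factor of primitive endoderm and of proliferating gut crypts, rose most, from 3.92, 2.85 and 2.58 CPM to 10.4, 11.8 and 10.7 CPM (log2 fold change 1.80, SE 0.18, adjusted p = 0.000391). *Ascl2*, a factor of intestinal stem cells and of trophoblast, had a log2 fold change of 1.30 (adjusted p = 0.00745). *Klf4*, which serves both goblet cells and pluripotency, had 1.14 (adjusted p = 0.0297), a call lost in 5 of the 15 other fits. *Foxa3*, an endoderm factor, was the fallen gene, from 2.63, 1.495 and 2.22 CPM to 0.660, 1.05 and 0.756 CPM (log2 fold change -1.37, adjusted p = 0.0143), and this call was lost without *HOXA13* replicate 1 (adjusted p = 0.0768) or 3 (adjusted p = 0.061). *Pdx1* was at 0 in all libraries, and *Gata5* and *Isx* had at most 1 count in any. The number called was 3 without *HOXA13* replicate 1, 4 without *HOXA13* replicate 3 and 5 without *HOXA13* replicate 2 or control replicate 3, and 12 without control replicate 2.

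Of 12 transcription factors of surface epithelium, 10 were tested, 4 (40%) rose and 0 fell (0 also at an unadjusted p under 0.05 and with DESeq2 or limma-voom). Their median log2 fold change was 0.45, and 27.7% of all genes tested were called. *Tfap2c*, an AP-2 factor of surface ectoderm, trophoblast and germ cells, rose from 50.1, 50.4 and 60.8 CPM to 217.9, 225.9 and 224.4 CPM (log2 fold change 2.05, SE 0.09, adjusted p = 8.21e-06). *Gata3*, with parts in skin and trophoblast, rose from 5.13, 5.03 and 4.75 CPM to 14.9, 15.4 and 13.8 CPM (log2 fold change 1.57, SE 0.12, adjusted p = 8.86e-05). *Foxn1*, a factor of hair and thymus epithelium, rose from a level close to the floor, 0.268, 0.272 and 0.152 CPM, to 1.47, 1.71 and 1.97 CPM (log2 fold change 2.86, adjusted p = 0.000753). *Trp63*, which defines basal squamous cells, had 2 to 6 counts in each library.

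Listed grainyhead targets and genes of polarised epithelium split in both directions, and which of them the factors act on in these cells was not tested. Of the 25 listed, all 25 were tested, 5 rose and 7 fell, with a median log2 fold change of -0.10. That is 48% called, against 27.7% of all genes tested. The balance of directions depended on single libraries. It was 5 higher and 2 lower without *HOXA13* replicate 1 (median 0.05), 5 and 3 without *HOXA13* replicate 3, and 5 and 4 without *HOXA13* replicate 2. It was 6 and 5 without control replicate 3 (median 0.05) or with limma-voom, and 8 and 8 without control replicate 1. In the other direction, it was 6 and 9 without control replicate 2 (median -0.14) or with chromosomes centred, and 5 and 8 with library size alone. Those that rose most were *Esrp2*, an epithelial splicing factor (13.6, 12.6 and 16.8 CPM in control, 40.9, 41.8 and 37.3 CPM in *HOXA13*-overexpressing libraries, log2 fold change 1.48, adjusted p = 0.000134), and *Cldn4*, a tight junction claudin (60.8, 55.2 and 71.3 against 162.3, 173.7 and 151.3 CPM, log2 fold change 1.38, adjusted p = 8.6e-05). *Spint1*, an inhibitor of surface serine proteases, had a log2 fold change of 1.33 (adjusted p = 2.34e-05) and *Prom2*, a membrane protein of epithelial protrusions, one of 1.28 (adjusted p = 0.0047). None of these 4 calls was lost in any of the 15 other fits. *Epcam*, an epithelial adhesion molecule that mESCs express, rose by less (log2 fold change 0.37, adjusted p = 0.00904).

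The keratin pair *Krt8* and *Krt18* of simple epithelium, both also among the trophectoderm markers below, fell. *Krt19* did not pass (log2 fold change -1.80, adjusted p = 0.0557). *Krt7*, a trophectoderm marker outside the list of grainyhead targets, rose (log2 fold change 1.22, adjusted p = 0.00307). *Krt8* was at 142.1, 19.5 and 58.9 CPM in control and at 13.5, 15.4 and 12.6 CPM in *HOXA13*-overexpressing libraries (log2 fold change -2.42, SE 0.60, adjusted p = 0.0196), and its partner *Krt18* at 92.8, 18.4 and 40.4 against 10.3, 10.4 and 8.32 CPM (log2 fold change -2.39, adjusted p = 0.011). Both were highest in control replicate 1 and lowest among controls in replicate 2, the order of *T* and *Cdx2*. *Krt8* was lost with limma-voom (adjusted p = 0.0758) and without any of the 3 *HOXA13* replicates, *Krt18* without *HOXA13* replicate 1 or 3. Without control replicate 1 the log2 fold changes were -1.52 for *Krt8* and -1.61 for *Krt18*. *Mal2*, which sorts apical membrane, fell (log2 fold change -2.26, adjusted p = 0.0028). *Cldn6* had -0.92 (adjusted p = 0.047), a call lost in 9 of 15 other fits. *Cdh1*, the gene of E-cadherin, had a log2 fold change of -0.49 (adjusted p = 0.0225) and remained at 451.8, 481.9 and 450.5 CPM in *HOXA13*-overexpressing libraries, a call lost in 4 of the 15. *Spint2* and *Cgn* were the other fallen genes. None of the 5 mesenchymal repressors of epithelial genes (*Zeb1*, *Zeb2*, *Snai1*, *Snai2*, *Twist1*), of which *Zeb1* is held down by *Ovol2* and *Grhl2* in other tissues, passed in edgeR, 1 was lower at an unadjusted p under 0.05, and 0 passed with DESeq2 or limma-voom. The log2 fold change of *Zeb1* was 0.07 (SE 0.15).

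Genes of mature gut were mostly too low to be tested. Of 13 listed targets of caudal factors, 5 could be tested, 1 (20%) fell and 0 rose (0 rose also at an unadjusted p under 0.05 and with DESeq2 or limma-voom). The median log2 fold change of these 5 was -0.85. It was -0.45 over the 4 with at least 10 counts in every library, 0.04 over 12 with no filter on low counts and 0.03 with DESeq2. *Cyp26a1*, a retinoic acid-degrading enzyme named after its values had been seen, was left out by the filter, with 372, 7 and 97 reads in the control libraries against 5, 3 and 5. The fallen gene was *Dll1*, a Notch ligand that *Cdx2* activates in the embryo's tail (log2 fold change -1.55, adjusted p = 0.0149), and it was lost without *HOXA13* replicate 2 (adjusted p = 0.0717) or 3 (adjusted p = 0.0648). The intestinal targets *Alpi*, *Car1* and *Mep1a* had at most 2 counts in any library, *Sis* had 5, 3 and 0 counts in *HOXA13*-overexpressing libraries and none in control, and *Cdh17* had a log2 fold change of -0.06 (SE 0.25). Of 21 genes of differentiated gut epithelium, 6 could be tested, 1 rose and 2 fell (50% called, against 27.7% of all genes tested). *Dpp4*, a surface peptidase of enterocytes and other cells, rose from 8.43, 8.36 and 10.8 CPM to 45.8, 39.9 and 45.3 CPM (log2 fold change 2.24, SE 0.13, adjusted p = 2.14e-05). *Anpep*, another brush border peptidase, fell (log2 fold change -1.60, adjusted p = 0.00208), and *Apob*, a lipoprotein of enterocytes and visceral endoderm, fell as well (log2 fold change -1.27, adjusted p = 0.00309). *Fabp1*, *Fabp2*, *Guca2b* and *Agr2*, which mark mature gut cells, were at 0 counts in all 6 libraries.

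**Figure D4:**
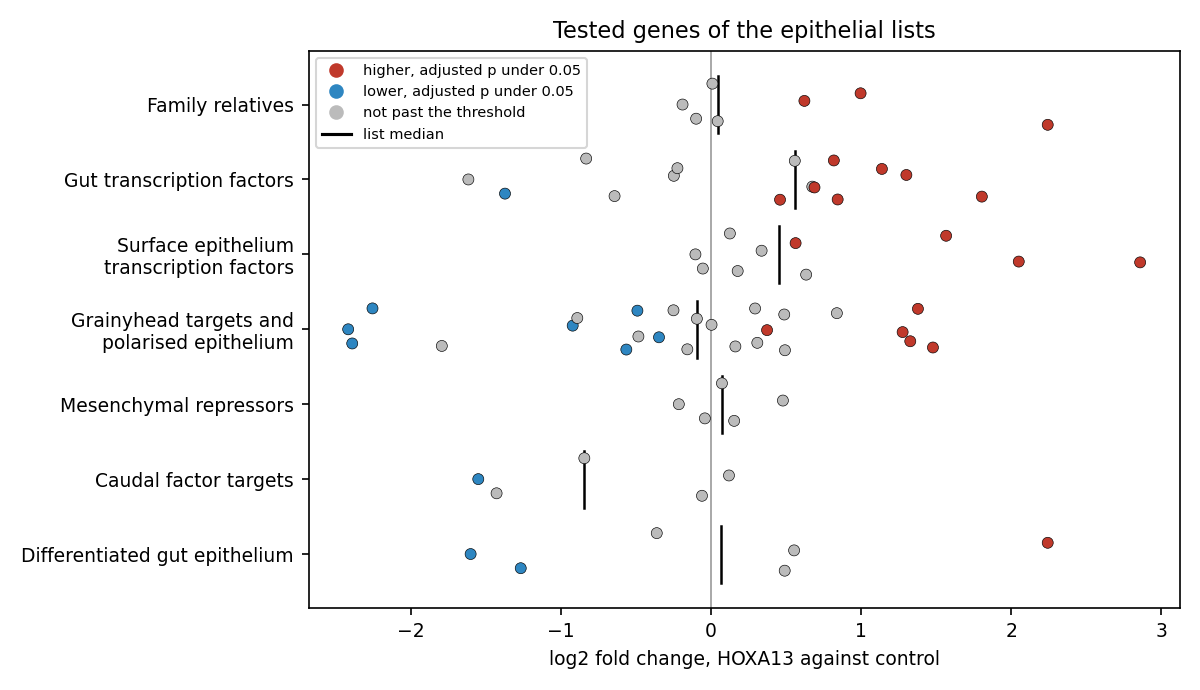
Log2 fold change of each tested gene of the 7 lists, with 1 point per gene, red for higher and blue for lower at an adjusted p under 0.05, grey for neither, and a line at the median of each list. The medians of the gut and surface factors lie at 0.56 and 0.45, and the grainyhead targets spread from -2.42 to 1.48.

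Several of the factors that rose also serve the trophectoderm, the outer layer of the blastocyst. Of 14 listed trophectoderm markers, 12 were tested, 6 rose and 4 fell (83.3% called, against 27.7% of all genes tested). Their summed level was 153 to 414 CPM in control and 390 to 401 CPM in *HOXA13*-overexpressing libraries. *Esx1* (log2 fold change 2.50, adjusted p = 0.00169) and *Fgfr2* (log2 fold change 1.90, adjusted p = 6.32e-05) rose beside *Tfap2c*, *Gata3*, *Krt7* and *Ascl2*. Those that fell were *Eomes*, *Krt8*, *Krt18* and *Tead4* (log2 fold change -0.43, adjusted p = 0.0385). *Eomes* was at 79.9, 17.5 and 45.8 CPM in control, in the order of *T* and *Krt8*, and at 13.96, 12.7 and 12.6 CPM in *HOXA13*-overexpressing libraries (log2 fold change -1.87, adjusted p = 0.0181), while *Cdx2*, which defines the lineage, overlapped between the groups. *Elf5*, another defining gene, had more reads in each *HOXA13*-overexpressing library (5 to 8) than in any control library (0 to 2), too few for the test. Of 12 tested primitive endoderm markers, 2 rose and 3 fell, with *Sox17* at 0 to 5 counts, and of 4 tested visceral endoderm markers 1 (*Apob*) fell and 0 rose (0 also at an unadjusted p under 0.05), with *Ttr* at 0. The part of cells of these lineages in the levels of *Elf3*, *Grhl3* and *Cdx1* was not tested.

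The genes beside each factor on the chromosome were taken by position, the 2 nearest tested genes on each side. Of these 36 neighbours of the 9 factors, 6 were higher and 2 lower. That is 22.2% of them, against 27.7% of all genes tested. *Rnpep*, which encodes an aminopeptidase, lies 4.24 kb from *Elf3* on the same strand. It was at 56.1, 53.0 and 57.5 CPM in control and at 138.0, 136.0 and 141.2 CPM in *HOXA13*-overexpressing libraries (log2 fold change 1.32, SE 0.06, adjusted p = 1.3e-05). Over the 15 other fits its log2 fold change was between 0.94 and 1.34, beside a median of 0.38 for chromosome 1. *Timm17a*, 43.1 kb away, had a log2 fold change of 0.42 (adjusted p = 0.00796), about that of the median gene of chromosome 1, and an adjusted p of 0.74 with chromosomes centred. On the other side, *Arl8a* at 97.3 kb (log2 fold change 0.04) and *Ptpn7* at 108 kb (-1.22, SE 0.56) did not pass. *Ptpn7* had 40, 13 and 9 reads in the control libraries and ranged from -1.61 to -0.51 over 14 other fits. Beside *Grhl3*, *Stpg1*, 4.08 kb away on the opposite strand, rose from 0.223, 0.272 and 0.556 CPM to 1.32, 1.71 and 1.44 CPM (log2 fold change 2.06, SE 0.38, adjusted p = 0.00554). Its control counts were 5, 4 and 11, which is near the floor. *Ifnlr1*, an interferon receptor gene 113 kb away, had a log2 fold change of 1.62 (adjusted p = 0.0177), lost without any of the 3 *HOXA13* replicates, while *Nipal3* (-0.12) and *Srsf10* (0.10) did not pass. Around *Cdx1*, none of *Slc6a7* (-0.48), *Camk2a* (-0.45), *Pdgfrb* (0.23) and *Csf1r* (-0.32) passed in edgeR. *Rrm2* near *Grhl1* and *Pan3* near *Cdx2* were the other neighbours that rose, with *Flt1* near *Cdx2* and *R3hdml* near *Hnf4a* lower.

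**Figure D5:**
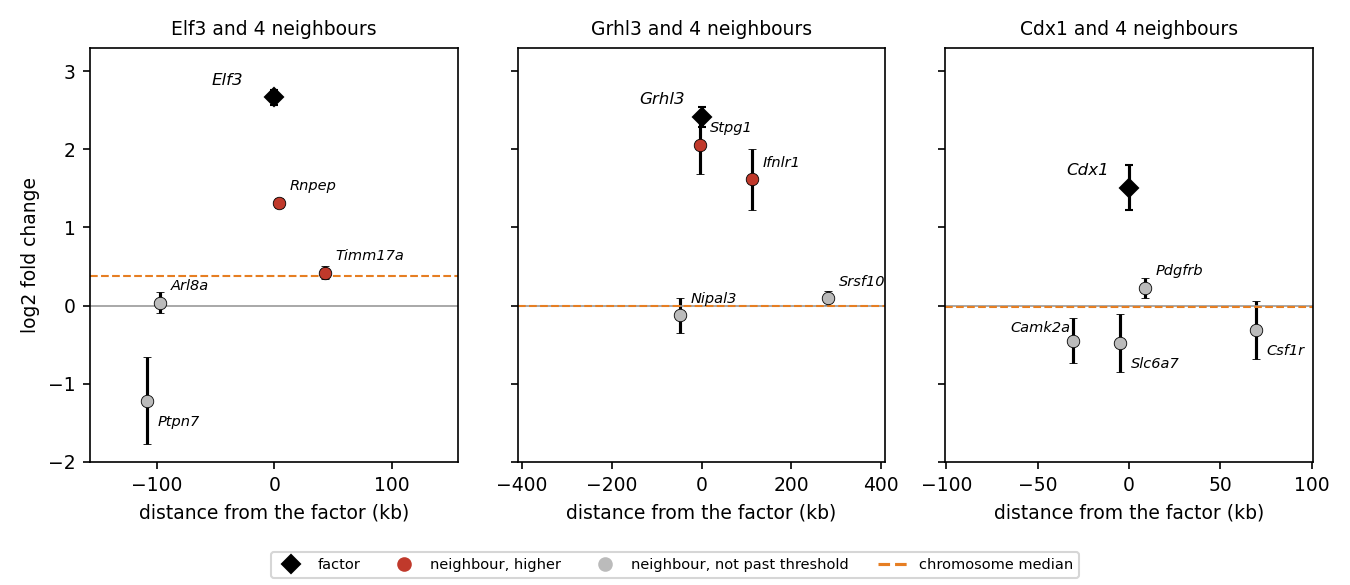
Log2 fold change with standard error of *Elf3*, *Grhl3* and *Cdx1* (black diamonds) and of the 2 nearest tested genes on each side (circles, red where higher at an adjusted p under 0.05), by distance in kb, with the median of the chromosome as a dashed line. *Rnpep* at 1.32 and *Stpg1* at 2.06 are the nearest genes to *Elf3* and *Grhl3*, and the neighbours of *Cdx1* lie between -0.48 and 0.23.

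Many genes had a like pattern over the 6 libraries. The Pearson correlation of log2 CPM with *Elf3* was 0.95 or more for 788 genes (5.69%), with *Grhl3* for 959 genes (6.93%) and with *Cdx1* for 379 genes (2.74%), over the same 6 libraries and as a description only. The closest to *Elf3* were *Prkch* (r = 0.9999), a protein kinase C gene that went from 0.922 to 24.5 CPM on average, *Ubqln2* and *Hsdl1*. The closest to *Grhl3* were *Phf21b*, *Chd3* and *Smagp*, and those to *Cdx1* were *Fam63a*, *Ccdc3* and *Ppp4r1*. The log2 fold changes of the genes closest to *Cdx1* were 0.58, 0.83 and 0.35.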

How the data were processed

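The 6 libraries were grouped by the condition in their labels. The authors aligned the reads with TopHat to build mm9. They deposited whole-number counts per gene from HTSeq (0.6.1p1), not normalized. The TopHat version differs between the paper's methods and the submitters' processing notes (2.0.14 in the latter), and libraries were made with a kit that keeps the strand. Annotation, counting mode and the strand setting of the counting are not given in the sources used here, so that reads of a gene and an antisense partner may not be separated. Members and gene lists were chosen with earlier results of these data known.

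All genes were fitted together in edgeR 4.0.16 under R 4.3.3 (filterByExpr with a minimum count of 10 and a total of 15, TMM factors, glmQLFit and glmQLFTest, no covariates), with Benjamini-Hochberg adjustment over 13846 genes and a threshold of 0.05. The SE is |log2 fold change| over √F. Floors cover counting error only. Within each list, genes past the threshold were named, up to 4 with the largest change in each direction. *Epcam*, *Cdh1* and others beyond these, and listed genes that did not pass, were named after their values were seen. The same holds for *Krt7*, *Esx1*, *Fgfr2*, *Eomes* and *Tead4*. Alternatives were RLE factors, library size, 2 other filters, the replicate block, robust estimation, DESeq2 1.42.0, limma-voom (limma 3.58.1), centred chromosomes and each library left out. The code was first tested on simulated data. Gene positions and exon lengths are those of GENCODE on NCBIM37 (mm9), on which 97.9% of the tested genes were placed. Protein sequences were not used here, and some listed genes that the rule would name are not reported here.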

Additional observations from a re-analysis of the deposited data

How the results depend on the processing

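Of the 35 listed or neighbouring genes past the threshold that were followed through the other fits, 19 kept their call in every fit that tested them and 16 lost it in at least 1. *Foxn1*, *Stpg1* and *Ifnlr1* were not tested with at least 10 counts in every library. Leaving out 1 library moved the number of called genes between 1 and 4 for the family relatives, 3 and 12 for the gut factors, 7 and 16 for the grainyhead targets, 0 and 1 for the mesenchymal repressors, and 0 and 3 for the caudal targets (0 without *HOXA13* replicate 2 or 3, 3 without control replicate 2). Without a filter on low counts, 5 family relatives and 2 caudal targets passed. Caudal targets were also 2 with DESeq2 and 2 with chromosomes centred, 1 mesenchymal repressor passed with library size alone, and 5 neighbours passed with at least 10 counts in every library, where fewer genes were tested. The cause of the other differences was not tested. *Cdx2* had a log2 fold change of -0.0030 with library size alone, and between -0.36 and 0.72 when 1 library was left out. *Arl8a* had -0.33 with chromosomes centred, -0.035 with library size alone and between -0.081 and 0.12 when 1 library was left out, and *Nipal3* between -0.36 and 0.095. Same-numbered libraries did not deviate together, with correlations of -0.02, -0.05 and 0.02 between their deviations, and 1 of 3 control libraries matched its own number best. With 3 libraries a group, this cannot show whether the cultures were paired. With the replicate block, 3172 of 13846 genes passed against 3836 without it. The block changed no list count by over 1.5 times, and *Cldn6* (adjusted p = 0.0894) was among the followed calls that it lost. With 3 libraries a group, *Ehf* and *Hnf4a* lie under what this depth can show.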
